A study of Mus musculus with 14 samples.

Results

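Mir1a-1, Mir1a-2, Mir133a-1, Mir133a-2, Mir208a and Mir208b are the genes of the mouse genome that give rise to the muscle microRNAs miR-1, miR-133a and miR-208. These 6 genes were taken by symbol from the 56748 genes of each deposited table, after Ensembl identifiers had been matched to symbols, and all 6 had a row among the 1124 microRNA genes measured. Mir133a-1 was picked on these values, since it was higher in WT_B than in WT_A, so its difference between those groups is given only as a description. The samples were RNA-Seq libraries of heart tissue from 14 WT C57BL6J mice, 1 library per mouse, the controls of a study of NAD+ precursors in a doxycycline-inducible mouse model of Friedreich's ataxia. The groups were WT_A (4 mice), WT_F (5 mice) and WT_B (5 mice). No mouse carried the knockdown transgene or received a precursor, and all received doxycycline chow, begun at 12 to 16 weeks of age. By their mouse numbers, WT_A and WT_F matched males and females of the first cohort. WT_B was taken as the all-male second cohort by elimination, since the labels do not spell this out. Y-linked transcripts were above 0 in all libraries of WT_A and WT_B and in 0 of 5 of WT_F, and Xist was at 1.23 to 4.97 FPKM in WT_F, 0 in WT_A and at most 0.0122 in WT_B, where 3 of 5 libraries were above 0. Doxycycline lasted 20 weeks in WT_A, 26 in WT_F and 16 in WT_B by cohort and sex, whereas the labels carry 1 range, 16 to 20 weeks, for every mouse. Sex and weeks therefore cannot be told apart in WT_F against WT_A, cohort and weeks in WT_B against WT_A, and all 3 in WT_B against WT_F.

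MicroRNA genes are transcribed as long primary transcripts. In the nucleus Drosha and Dgcr8 cut a hairpin from the primary transcript, and in the cytoplasm Dicer1 cuts the hairpin to a mature strand that guides Argonaute proteins to messenger RNAs, mostly through the seed near its 5′ end. miR-1 and miR-133a are made from shared primary transcripts under the control of Srf and Mef2 proteins and are among the most abundant microRNAs of heart muscle. miR-208a and miR-208b lie in introns of the α- and β-myosin heavy chain genes Myh6 and Myh7 and are known for their part in the myosin switch of the stressed heart. The libraries were made from RNA selected on poly-T beads and cut into fragments. Mature microRNAs are too short and have no poly(A) tail, so the values below are fragments of primary transcripts or introns that fell on the hairpin genes, not levels of mature microRNAs.

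The sequences of the miR-208 family are shown because Mir208b carried most of the fragments and Mir208a is its near copy, and miR-499-5p because it has nearly the same seed. They are from RefSeq on build GRCm38.p6, written 5′ to 3′ with the seed, bases 2 to 8, in capitals.
mmu-miR-208a-3p: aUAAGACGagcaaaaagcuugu
mmu-miR-208b-3p: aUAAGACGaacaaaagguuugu
mmu-miR-499-5p: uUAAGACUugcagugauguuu
mmu-miR-208a-5p: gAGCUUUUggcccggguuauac
mmu-miR-208b-5p: aAGCUUUUugcucgcguuaugu
Of the 22 bases of the miR-208 3p strands, 3 differed between the copies, all outside the seed: G10A, A16G and C18U, with the base of miR-208a first and positions counted from its 5′ end. The 5p strands shared their own seed and differed at 6 of 22 bases. miR-499-5p shared 6 of 7 seed bases with miR-208a-3p. On GRCm38.p6, miR-208a-3p is at chr14:54949072-54949093 and miR-208b-3p at chr14:54975710-54975731, both on the minus strand. Of the 6 genes, 3 had a mature sequence in the table used, Mir208a, Mir208b and Mir1a-1, the last with its 5p strand alone.

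By the annotation, the hairpin of Mir208a (83 bases) lies in an intron of Myh6 on the same strand, 196 bases from the nearest exon. The hairpin of Mir208b (77 bases) lies in an intron of Myh7 on the same strand, 103 bases from the nearest exon and 26558 bases from Mir208a. In RefSeq the long noncoding RNA Gm31251 also spans Mir208b, and its strand was not compared. Fragments on Mir208b can therefore not be assigned to the Myh7 intron alone. Mhrt, a long noncoding RNA of the opposite strand, ends 1351 bases from Mir208b. Mir1a-1 (77 bases) and Mir133a-2 (104 bases) lie 9254 bases apart in the span of Mir1a-1hg on chromosome 2. Mir133a-1 (68 bases) and Mir1a-2 (72 bases) lie 2504 bases apart in introns of the host transcript Mir133a-1hg on chromosome 18, antisense to the ubiquitin ligase gene Mib1. The whole of Mir1a-2 is overlapped by Mir1b on the opposite strand, so without knowledge of the strand setting, which is not given in the sources used here, fragments there cannot be assigned to one of these 2 genes.

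The deposited values are FPKM, fragments divided by gene length and library depth. Because these genes are 68 to 104 bases long, few fragments give a high FPKM. The number of fragments was recovered from the size of 1 fragment in each library. At a depth of 16810000 to 31970000 fragments per library (median 23585000), 1 fragment on a gene of 77 bases was worth 0.406 FPKM in the deepest library and 0.773 in the shallowest. Of all microRNA genes, 185 (16.5%) were above 0 in at least 1 library and 39 in at least 7. The share of FPKM on mitochondrial genes was 33.8% to 52.0% in WT_B but 1.93% to 17.2% in the first 2 groups, except for mice 22 (51.0%) and 28 (50.0%). The library of mouse 24 carried atrial transcripts, with the atrial light chain Myl7 at 4235 FPKM against at most 2.003 in the others, and ventricular Myl2 at 82.1 against at least 2226. Of the 6 genes, 5 were detected. Intervals on fragment totals are exact Poisson intervals (95%) and cover counting error only.

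Mir208b was the most abundant microRNA gene measured and the only member with more than 50 fragments in every library. Its FPKM was 106, 54.2, 36.2 and 89.1 in WT_A (mice 22, 23, 24 and 26), from 261, 120, 67 and 137 fragments. In WT_F (mice 28 to 32) it was 97.2, 187, 69.4, 178 and 125, from 164, 340, 135, 341 and 263 fragments. In WT_B (mice 4, 5, 7, 8 and 9) it was 243, 173, 90.1, 248 and 169, from 427, 224, 126, 451 and 237 fragments. The groups overlapped: mouse 24, the library with atrial transcripts, was lowest of all 14, and mouse 7 of WT_B lay below mouse 22 of WT_A. Group means were 71.4 ± 31.9 (SD, n = 4), 131 ± 51.0 (n = 5) and 185 ± 64.7 FPKM (n = 5).

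Mir208a, the copy in the gene of the main adult myosin, was detected in 11 of 14 libraries with 77 fragments in all, against 3293 for Mir208b. In WT_A it had 2.26, 0, 4.01 and 0 FPKM from 6, 0, 8 and 0 fragments. WT_F had 2.20, 5.11, 0, 0.970 and 3.09 FPKM from 4, 10, 0, 2 and 7 fragments. WT_B had 9.49, 2.87, 0.663, 6.12 and 3.30 FPKM from 18, 4, 1, 12 and 5 fragments. The groups overlapped, and each level below 5 fragments is close to the detection limit. The means were 1.57 ± 1.95 (SD, n = 4), 2.28 ± 1.98 (n = 5) and 4.49 ± 3.40 FPKM (n = 5). Mir208b exceeded Mir208a in all 14 libraries, by a median of 44.2 times in the 11 libraries where Mir208a was above 0, and the lowest ratio, 9.03, was that of mouse 24. The order was the reverse of that of the host genes: Myh6 had 3056 ± 472 and Myh7 35.2 ± 15.8 FPKM (SD, n = 14).

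Mir133a-2 was detected in every library, with 255 fragments in all, and ranked 3 among the microRNA genes by mean FPKM. WT_A had 1.80, 9.69, 1.60 and 4.33 FPKM from 6, 29, 4 and 9 fragments. In WT_F the FPKM was 1.32, 5.31, 11.4, 17.4 and 6.35, from 3, 13, 30, 45 and 18 fragments. WT_B showed 6.73, 2.86, 8.996, 11.4 and 16.9 FPKM from 16, 5, 17, 28 and 32 fragments. The highest value was that of mouse 31 and the lowest that of mouse 28, both of WT_F, so the spread within that group spanned all 14 libraries. The means were 4.36 ± 3.77 (SD, n = 4), 8.36 ± 6.21 (n = 5) and 9.37 ± 5.24 FPKM (n = 5).

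Mir133a-1, the other gene for miR-133a, had 85 fragments in all and was detected in 10 of 14 libraries. In WT_A only mouse 22 had fragments, 3 of them (1.38 FPKM), and mice 23, 24 and 26 were at 0. In WT_F the fragments were 8, 3, 2, 5 and 0, or 5.37, 1.87, 1.16, 2.96 and 0 FPKM. In WT_B they were 10, 5, 28, 10 and 11, or 6.44, 4.37, 22.7, 6.23 and 8.86 FPKM. Every WT_B value lay above every WT_A value, which is the property for which the gene was picked. WT_B overlapped WT_F, where mouse 28 (5.37 FPKM) lay above mouse 5 (4.37 FPKM). The mean was 9.71 ± 7.41 FPKM in WT_B (SD, n = 5), 2.27 ± 2.04 in WT_F (n = 5) and 0.345 ± 0.690 in WT_A (n = 4). Mouse 7 alone gave 28 of the 64 fragments of WT_B.

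Pooled over a group, the genes of miR-133a stood at different ratios. In WT_A Mir133a-1 had 0.421 FPKM from 3 fragments (interval 0.0869 to 1.23) and Mir133a-2 had 4.41 from 48 (3.25 to 5.84). In WT_F the values were 2.15 from 18 fragments (1.28 to 3.405) and 8.53 from 109 (7.01 to 10.3). In WT_B they were 9.44 from 64 fragments (7.27 to 12.1) and 9.45 from 98 (7.67 to 11.5). Mir133a-2 was thus the higher of the pair per length in WT_A and WT_F, while the pooled values of WT_B lay within each other's intervals. That match held per length only: in fragments, WT_B had 64 of Mir133a-1 (interval 49.3 to 81.7) and 98 of Mir133a-2 (79.6 to 119). It also rested on mouse 7. Without that mouse, WT_B had 6.49 FPKM of Mir133a-1 from 36 fragments (4.55 to 8.99) and 9.55 of Mir133a-2 from 81 (7.59 to 11.9). Heart by heart, Mir133a-2 was higher in 4 of 4, 4 of 5 and 3 of 5 libraries. These ratios hold the WT_A and WT_B values of Mir133a-1 that chose it, and no test was made.

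**Figure D1:**
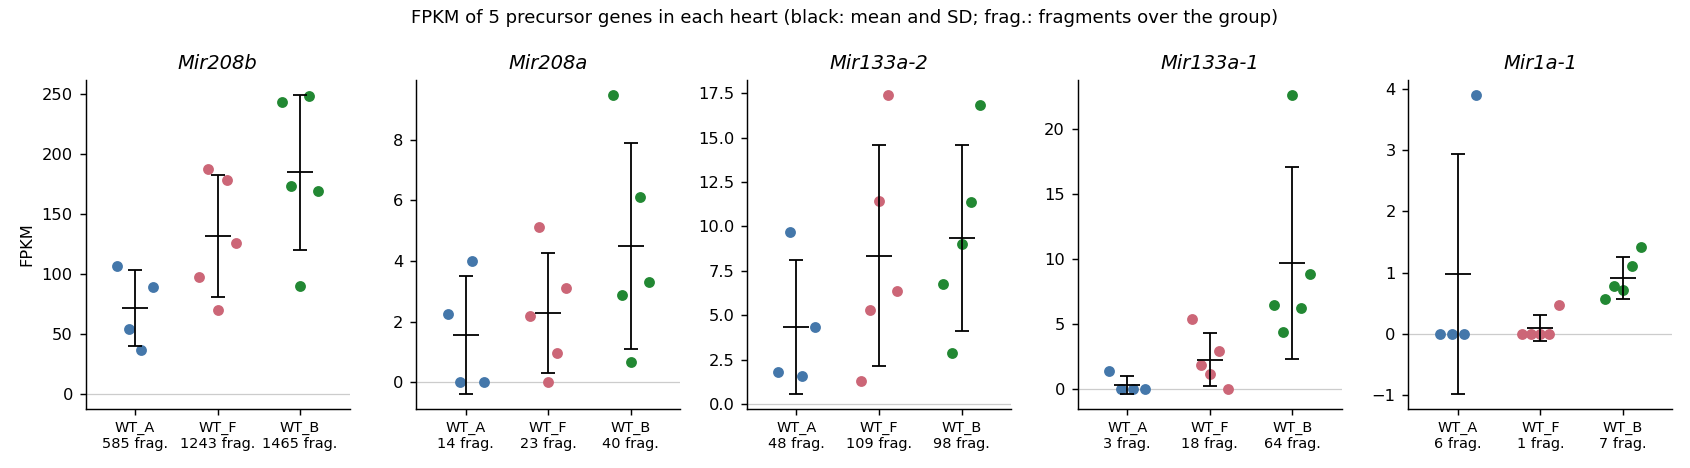
FPKM (linear axes, 1 scale per gene) of the 5 detected precursor genes in each heart, 1 point per library, with group mean and SD in black and the group's fragments under each name. Mir208b lies at 36.2 to 248 FPKM, while Mir1a-1 rests on 6, 1 and 7 fragments per group.

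**Figure D2:**
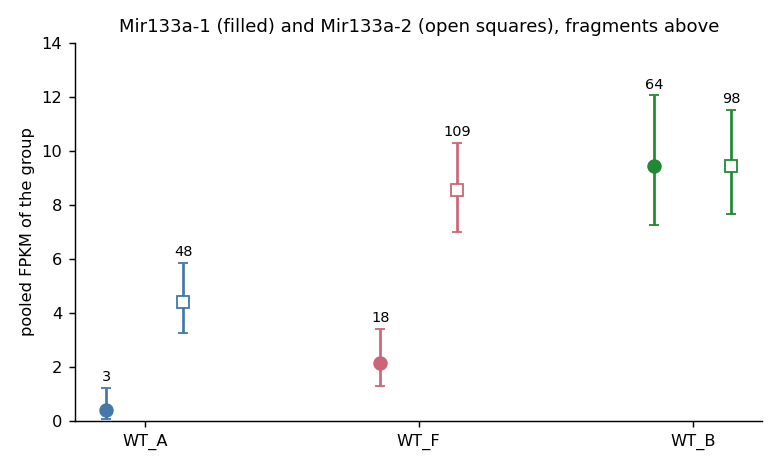
Pooled FPKM per group of Mir133a-1 (filled circles) and Mir133a-2 (open squares) with exact Poisson intervals, and the fragments above each point. Mir133a-1 goes from 0.421 in WT_A to 9.44 in WT_B, where Mir133a-2 has 9.45; without mouse 7, Mir133a-1 has 6.49 there.

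The genes for miR-1 were barely seen. Mir1a-1 had 14 fragments over all libraries. Mouse 26 held 6 of them (3.90 FPKM), and mice 22, 23 and 24 were at 0. In WT_F only mouse 32 had a fragment (0.476 FPKM). All 5 libraries of WT_B had 1 or 2 fragments, at 0.568, 0.773, 0.715, 1.10 and 1.42 FPKM. Apart from mouse 26, each level was thus that of 1 or 2 fragments. Mir1a-2 had 0 fragments in all 14 libraries, and because Mir1b covers it whole, this 0 sets no upper limit on its level. Mir133a-2, at the other end of the cluster of Mir1a-1, was higher than Mir1a-1 in all 14 libraries. Mir1b, the gene antisense to Mir1a-2, had 36 fragments in 6 libraries: 6 in mouse 22, 3 in mouse 28 and 1, 2, 14 and 10 in mice 4, 5, 7 and 8.

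WT_F was compared with WT_A with limma on log2(FPKM + 1), fitted across every gene that reached 0.5 FPKM in 4 or more of the 9 libraries. This comparison did not choose any member, but the WT_A values were part of the choice of Mir133a-1. In limma, 3 of 12483 genes (0.0240%) were called at an adjusted p of 0.05, and 480 (3.85%) had an unadjusted p under 0.05. Apart from Mir133a-1, 3 of 5 members passed the filter on low values, and 0 of them were called by limma or by voom on recovered fragments, with 1 at an unadjusted p under 0.05. Mir208b had the smallest p of these: its log2 difference was 0.90 (SE 0.37, 95% interval 0.08 to 1.72), with a limma adjusted p of 1.00 and an exact two-sided permutation p of 0.0873 (126 splits, smallest possible 0.00794). Without mouse 24 its difference was 0.62. For Mir133a-2 the difference was 0.74 (interval -0.59 to 2.07, exact permutation p = 0.302) and for Mir208a 0.45 (interval -0.91 to 1.82, exact permutation p = 0.548). These intervals are wide, and equal levels are not shown. Mir1a-1 did not pass the filter, and its exact permutation p was 0.722. For Mir133a-1 the fitted difference was 1.15, from 18 fragments in WT_F against 3 in WT_A. It became 2.76 with a pseudocount of 0.1 FPKM and 2.11 after rescaling without mitochondrial genes. These values are a description only, since the WT_A values were used to choose the gene.

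WT_B was then compared with WT_F. Here 208 of 12894 genes (1.61%) were called by limma, and 3323 (25.8%) had an unadjusted p under 0.05. Of those called, 86 were higher in WT_B and 122 lower (102 and 49 after rescaling to the genes outside the mitochondrial genome). With single mice left out, the number of genes called ran from 17 (without mouse 32) to 2645 (without mouse 28). Of the 5 members not picked on values, 4 passed the filter and 1, Mir1a-1, was called, at a log2 difference of 0.81 (SE 0.14, limma adjusted p = 0.0287, exact permutation p = 0.00794, the smallest possible). This call rests on 7 fragments in WT_B against 1 in WT_F, and Mir1a-1 passed the filter only through WT_B, so it had to differ and the call is no support for a difference. It was lost in limma with no filter (adjusted p = 0.0704), with all 14 libraries in 1 fit (0.278) and in voom (0.0763), and without mouse 29 (adjusted p = 0.0838), 30 (0.0644), 31 (0.0787), 4 (0.0555), 5 (0.0756), 7 (0.0547) or 8 (0.0579), each left out alone. Every library of WT_B lay above every library of WT_F for Mir1a-1, as for 1.62% of all genes tested.

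No other tested member was called between WT_B and WT_F. Mir208b had a difference of 0.49 (interval -0.21 to 1.20, limma adjusted p = 0.349, exact permutation p = 0.246). For Mir208a it was 0.74 (interval -0.44 to 1.92, adjusted p = 0.403 in limma, exact permutation p = 0.270). For Mir133a-2 it was 0.29 (interval -0.88 to 1.45, adjusted p = 0.765 in limma, exact permutation p = 0.659), and it turned to -0.14 without mouse 28. The fitted difference of Mir133a-1 was 1.75, or 4.38 times on pooled FPKM. Its 64 and 18 fragments are not independent of the choice of the gene, which used the WT_B values.

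Between WT_B and WT_A, the comparison from which Mir133a-1 was picked, 0.322% of 12745 genes were called by limma, and in 2.84% every WT_B value lay above every WT_A value. Nothing is read from these shares for the members. The fitted log2 difference was 2.90 for Mir133a-1, 1.39 for Mir208b, 1.19 for Mir208a, 1.03 for Mir133a-2 and 0.35 for Mir1a-1. On pooled FPKM, Mir133a-1 was 22.4 times higher in WT_B, from 64 against 3 fragments, and Mir208b 2.63 times, from 1465 against 585. Mir1a-1 stood at 1.23 times, and its difference in means ran the other way, 0.916 in WT_B against 0.976 in WT_A. The comparisons share the samples of WT_F or of WT_B with each other.

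**Figure D3:**
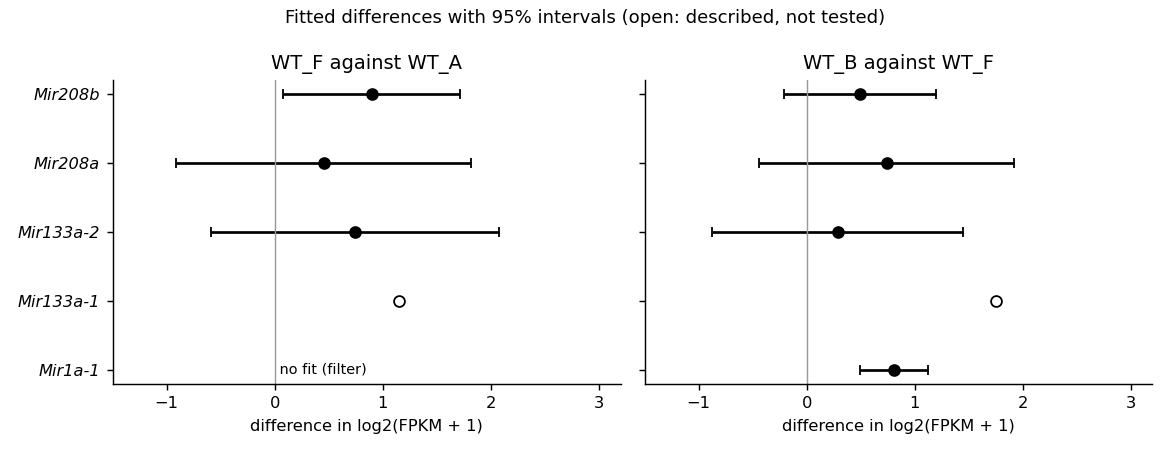
Fitted difference in log2(FPKM + 1) for WT_F against WT_A (left) and WT_B against WT_F (right), with 95% intervals from limma; Mir133a-1 (open circles) is shown without interval because it was picked on these values. The narrow interval of Mir1a-1 in WT_B against WT_F comes from 7 against 1 fragments, and this gene passed the filter on low values only through WT_B.

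Each host gene was set beside its microRNA gene in every library. Myh7 in single libraries ran from 6.88 FPKM (mouse 24) to 61.9 (mouse 23). Per length, the hairpin of Mir208b exceeded its whole host Myh7 in 13 of 14 libraries, with a median ratio of 3.94 and a range of 0.875 (mouse 23) to 8.95 (mouse 8). Fragments were divided by 77 bases for Mir208b and by 8616 bases of exons for Myh7, so the ratio is not a ratio of molecules. The part of the short length of the hairpin in this ratio was not tested. No difference of the ratio between groups passed the test: the log2 ratio differed by -0.08 between WT_F and WT_A (exact permutation p = 0.857) and by 0.68 between WT_B and WT_F (exact permutation p = 0.167). Mir208a, in contrast, had at most 0.00263 of the FPKM of Myh6, and its ratio, with 1 FPKM added to each gene, gave exact permutation p values of 0.786 and 0.429 in the same comparisons.

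Across the 14 libraries, the correlation of Mir208b with Myh7 on log2(FPKM + 1) was 0.41, and -0.01 once mouse 24 was left out. With Mhrt it was 0.93, and 0.92 without mouse 24. Mhrt had 7.05 ± 2.63 FPKM in WT_A (SD, n = 4), 13.48 ± 4.04 in WT_F (n = 5) and 18.7 ± 4.43 in WT_B (n = 5), the same order as Mir208b, and was not called in either tested comparison (limma adjusted p = 1.00 and 0.199). Myh7b, the myosin gene that hosts miR-499, correlated at 0.82 with Mir208b, and Mir499 itself was at 0 in every library. For Mir133a-1 the correlation with its host transcript Mir133a-1hg was -0.16, and the host had 4.51 ± 1.40, 3.57 ± 0.583 and 3.66 ± 1.23 FPKM in WT_A, WT_F and WT_B. Mib1, on the other strand, correlated at 0.37 with Mir133a-1. These correlations are descriptions over 14 libraries that share depth and quality differences, and those of Mir133a-1 hold the values that chose it. Because the strand setting of the counting is not given, they do not tell which transcript the fragments on Mir208b or Mhrt came from.

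**Figure D4:**
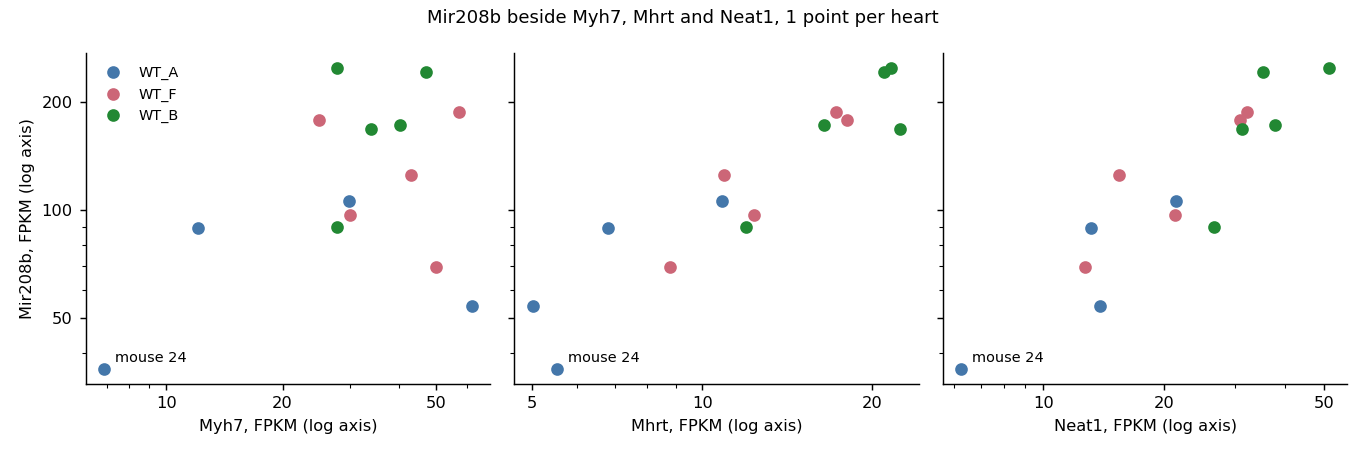
Mir208b against Myh7, Mhrt and Neat1, FPKM on log axes, 1 point per heart coloured by group. The points line up for Mhrt and Neat1 (correlations 0.93 and 0.92 on log2(FPKM + 1)) but scatter for the host gene Myh7 (0.41), where mouse 24 sets the lower end.

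Among 10595 other genes of at least 1 FPKM on average, those most like Mir208b across the 14 libraries were Snrnp70, a protein of the U1 splicing particle (correlation 0.94), Mhrt, Fam193b (0.93), the paraspeckle RNA Neat1 (0.92) and the splicing factor Srsf5 (0.91). Those most opposite were Pard3b (-0.92), Amotl1 (-0.89) and Arfgef2 (-0.85). For Mir133a-1 the most alike were Rasgrp3 (0.93), the O-GlcNAc transferase Ogt (0.93), Zfp612 (0.92), Zkscan1 (0.90) and Clk1 (0.90), a kinase of splicing factors, and the most opposite the mevalonate kinase Mvk (-0.94), Hyal2 (-0.93) and the pseudogene Rps16-ps2 (-0.93). For Mir133a-2 the most alike was the cyclin Ccnk (0.85), followed by Tatdn3, Clk2, Secisbp2 and Gm17720 (0.79 to 0.80), and the most opposite were Uri1 (-0.88), Slc19a2 (-0.78) and Commd8 (-0.73). For Mir208a the leading genes were Utp3 (0.88), Fbxl19 (0.85), Khnyn (0.83), Zfp408 (0.82) and Siah1a (0.79), with Pvr, Rpa1 and Rptor at -0.85, -0.85 and -0.83. Mir1a-1, at 14 fragments, was nearest to Polr3a, Ccl11, Pdp2, Hook2 and Cxcl14 (0.74 to 0.85) and most opposite to Nhlrc2, Adamtsl2 and 6430548M08Rik (-0.77 to -0.83), and with counts so sparse this order carries little. Each is an extreme of 10595 correlations over 14 libraries, so its size alone is no result. Those of Mir133a-1 also hold the WT_A and WT_B values that chose it.

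Neat1 and Malat1, nuclear long noncoding RNAs, had the same order of group means as Mir208b. Neat1 had 13.7 ± 6.22 FPKM in WT_A (SD, n = 4), 22.5 ± 8.82 in WT_F (n = 5) and 36.5 ± 9.38 in WT_B (n = 5), and Malat1 12.4 ± 2.90, 16.6 ± 2.62 and 22 ± 4.30. Malat1 correlated at 0.83 with Mir133a-1 and at 0.33 with Mir133a-2. Because Mir133a-1 was picked on its WT_A and WT_B values, a gene with this order of means correlates with it partly by that choice. The list of nuclear-retained RNAs was chosen with earlier results of these data known, so its counts are descriptions and no support for a difference. Of its 8 members, 5 were tested between WT_B and WT_F and all 5 had an unadjusted p under 0.05, beside 25.8% of all genes. Among the 5 was Meg3, which needed the WT_B libraries to pass the filter on low values (mean 0.593 FPKM, against 0.400 in WT_F). Its p is therefore no support for a difference. Of the 5 tested, 2 were called, beside 1.61% of all genes: Clk1 (log2 difference 1.03, adjusted p = 0.0312 in limma) and Clk4 (0.60, limma adjusted p = 0.0266), both higher in WT_B. The list's median difference was 0.60, beside -0.03 over all genes. Between WT_F and WT_A, 4 were tested and 0 called by limma, with a median of 0.50 beside -0.002. Of the 4, 1 had an unadjusted p under 0.05, beside 3.85% of all genes. The part of RNA composition in the members' differences was not tested.

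The mitochondrial share of the libraries ran beside Mir133a-1 and Mir1b. In the 7 libraries with a share of 33.8% or more, Mir133a-1 had 75 fragments and was detected in 7, whereas the 7 libraries of 17.2% or less held 10 fragments in 3. For Mir133a-1 this split is largely fixed by the choice of the gene, since all 5 libraries of WT_B, with 64 of the 75 fragments, are among the first 7, and 3 of the other 7 are WT_A libraries at 0. Mir1b had 36 fragments in 6 of the first 7 libraries and 0 in the other 7. Both genes belong to the cluster at Mib1. Within the libraries of high share, mouse 22 of WT_A (1.38 FPKM of Mir133a-1) lay below all 5 mice of WT_B, and mouse 28 of WT_F (5.37) lay among them. The correlation with the mitochondrial share was 0.76 for Mir133a-1, 0.44 for Mir208b and -0.20 for Mir133a-2. The part of the mitochondrial share in the differences was not tested, since WT_B has no library of low share.

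**Figure D5:**
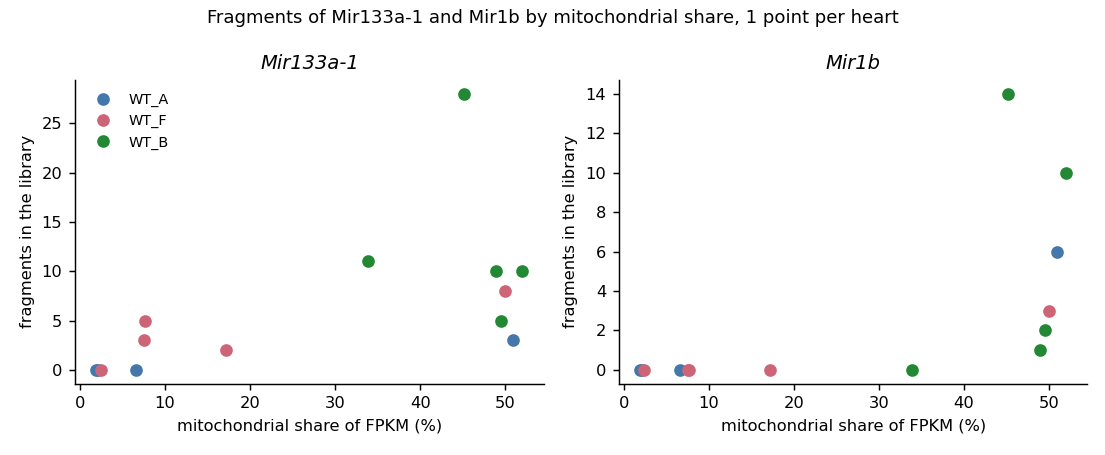
Fragments of Mir133a-1 (left) and Mir1b (right) in each library against the mitochondrial share of its FPKM in percent, coloured by group. Mir1b had fragments only in 6 libraries of high share, and Mir133a-1, picked for being higher in WT_B than in WT_A, had 75 of its 85 fragments in the 7 libraries of high share, which include all of WT_B.

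Other microRNA genes known from muscle and heart were mostly at 0. Overlap with other genes was looked up only for the members and Mir1b, so a 0 here does not show that the transcript was absent. Of 37 listed, 32 were measured and 2 were above 0 in at least 7 libraries, Mir143 and Mir145a, a pair made from 1 primary transcript and known from smooth muscle. Mir145a had 0.961 ± 1.48, 1.77 ± 1.13 and 4.92 ± 3.10 FPKM in WT_A, WT_F and WT_B, and Mir143 was at 0 in the 4 libraries of WT_A, with 0.889 ± 0.695 and 1.17 ± 1.05 in the others. Neither was called by limma in the tested comparisons, where 0 of 2 and 0 of 3 tested members of the list were called. At an unadjusted p under 0.05 there were 1 and 2, beside 3.85% and 25.8% of all genes. The 1 in WT_F against WT_A was Mir143, which passed the filter on low values only through WT_F. It had to differ there, and its p is no support for a difference. The 2 in WT_B against WT_F were Mir145a and Mir1b. Mir1b needed the WT_B libraries to pass the filter (mean 2.224 FPKM, against 0.2245 in WT_F). The p of Mir1b is therefore no support for a difference either. Mir133b and Mir206, the skeletal muscle relatives of the members, were at 0 in all 14 libraries. Of 10 skeletal muscle markers, 6 were above 0 in at least 7 libraries, and their sum was 1.27 to 5.56 FPKM in WT_A, 1.16 to 2.70 in WT_F and 1.35 to 1.52 in WT_B. The highest were Tnni2 (up to 4.53 FPKM), Mylpf (0.999) and Tnnt3 (0.605), and the myosin genes Myh1, Myh2 and Myh4 reached at most 0.0305, while the heart muscle markers Actc1 and Tnnt2 were at 5400 to 9341 and 564 to 1112 FPKM. Among the microRNA genes with the highest mean FPKM were also Mir5125 (40.9), Mir7052 (6.86), Mir6931 (4.49), Mir23b (3.03) and Mir6999 (2.96).

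Genes of microRNA processing were all 16 detected. Between WT_F and WT_A 0 of 16 were called by limma, with 1 at an unadjusted p under 0.05, beside 3.85% of all genes. Their median difference was 0.01, and the smallest p values were those of Ddx17, Ddx5 and Tnrc6c. Between WT_B and WT_F 3 of 16 had an unadjusted p under 0.05, beside 25.8% of all genes, and 1 was called, beside 1.61%, the RNA helicase Ddx5, a partner of Drosha, which was higher in WT_B at 83.5 ± 7.37 against 50.5 ± 9.23 FPKM (log2 difference 0.73, adjusted p = 0.0263 in limma). Drosha itself had a difference of -0.23 (limma adjusted p = 0.126) and Dicer1 0.11 (limma adjusted p = 0.400). Of the 9 transcription factors known to act on these microRNA genes, 0 were called in either comparison by limma. At an unadjusted p under 0.05 there were 1 and 3, beside 3.85% and 25.8% of all genes. Srf was at 59.3 ± 6.92, 48.1 ± 3.58 and 44.2 ± 2.14 FPKM, and the smallest p values for WT_F against WT_A were those of Srf, Nkx2-5 and Tbx5.

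Of 18 known target genes of miR-1, miR-133 and miR-208, all were tested and 0 were called in either comparison by limma, with 1 and 8 at an unadjusted p under 0.05, beside 3.85% and 25.8% of all genes. Their median difference was -0.03 between WT_F and WT_A, beside -0.002 over all genes, and 0.13 between WT_B and WT_F, beside -0.03. For WT_F against WT_A the smallest p values were those of Srf (-0.29), Irx5 (0.45) and Ccnd2 (-0.38). Between WT_B and WT_F, the calmodulin gene Calm2, a target of miR-1, had a difference of 1.00 (adjusted p = 0.0511 in limma), with 23.02 FPKM in WT_F and 44.6 in WT_B. Hand2, the first miR-1 target described in the mouse heart, had 0.03. In whole heart tissue, a change in the share of a cell type and a change in RNA per cell cannot be told apart. The lists of cell type markers held 0 genes called by limma between WT_F and WT_A, with the collagen gene Col3a1 at an unadjusted limma p of 0.00649. Not all markers passed the filter on low values: 2 of 5 atrial and 2 of 10 skeletal muscle markers were tested. The atrial markers summed to 32.4 to 12910 FPKM in WT_A and 42.4 to 150.7 in WT_F, so 0 calls do not show an equal make-up. Between WT_B and WT_F, 1 of 4 fibroblast markers, Col3a1 (log2 difference 0.50, limma adjusted p = 0.0429), and 1 of 4 ventricular markers, Hey2 (0.32, limma adjusted p = 0.0450), were called, beside 1.61% of all genes. Both were higher in WT_B. The median of the ventricular markers was -0.11, with Myl2 at -0.45 (adjusted p = 0.0662 in limma) and Myl3 at -0.25 (adjusted p = 0.134 in limma).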

How the data were processed

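RNA-Seq of heart tissue from 14 WT mice was analysed. The authors selected RNA on poly-T beads, made random-hexamer cDNA, counted fragments with featureCounts v1.5.0-p3 and deposited FPKM values per Ensembl gene, and the submitters' processing notes name GRCm39 and DESeq2. Gene lengths came from GENCODE M21, which belongs to GRCm38, for 52125 of 56748 genes. Symbols came from a separate list of gene names, for 52073 genes. Fragments were recovered from the FPKM steps: 90.2% to 92.0% of the values of 1 to 30 fragments came out whole with a tolerance of 0.02, beside 4.0% for evenly spread values. limma 3.58.1 (R 4.3.3) was fitted with an intensity trend to log2(FPKM + 1), with a filter of 0.5 FPKM in at least 4 libraries and Benjamini-Hochberg adjustment over all genes. Tested on simulated data, the fit called 78% of 2-fold changes for WT_F against WT_A and 95% for WT_B against WT_F. These shares are over 12483 and 12894 genes, and the share for the members was not tested. The changes had median fitted differences of 1.02 and 0.98 on log2(FPKM + 1), which at low FPKM is more than 2 times in FPKM. For WT_F against WT_A, the SE was 0.37 for Mir208b, 0.60 for Mir133a-2 and 0.61 for Mir208a. Single members were also compared by exact two-sided permutation tests over samples (scipy 1.17.1). No label says that mice of a group were separate beyond their numbers, so p-values measure the spread between these samples. Genes named are the 6 members, their hosts, microRNA genes above 0 in at least 7 libraries or among the 10 of highest mean FPKM, the list members with the smallest p, and genes most like each member; others were named after their values were seen. The members and lists were chosen with earlier results of these data known, so the counts of list members called are descriptions. Alternatives were other pseudocounts (0.1 and 5 FPKM), filters, scalings, fits and detection limits, and each mouse left out; a fit without mice 22, 24 and 28 and pooled values without mouse 7 were added after seeing the data.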

Additional observations from a re-analysis of the deposited data

Results flagged for a closer look

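Of 15 sets of group values of the 5 detected members, 4 held a library far from the rest of its group by Dixon's criterion. The rate of about 1 in 20 by chance does not hold here, since a lone library above 0 is always marked, as in 3 of the 4. The other is among the values on which Mir133a-1 was picked. Mouse 7 of WT_B had 22.66 FPKM of Mir133a-1 against 8.86 in the next highest library of its group. Mouse 22 had 1.38 FPKM of Mir133a-1 (3 fragments) while the other 3 libraries of WT_A were at 0. Mouse 26 had 3.90 FPKM of Mir1a-1 (6 fragments), with the other 3 of WT_A at 0, and mouse 32 had 0.476 FPKM of Mir1a-1 (1 fragment), with the other 4 of WT_F at 0.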

How the results depend on the processing

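No paired analysis was possible because the groups share no mouse numbers. Between WT_F and WT_A, 0 members were called under every alternative run. Between WT_B and WT_F the number called, 1 (Mir1a-1), became 0 with no filter, a filter of 2 FPKM (which removed Mir1a-1), all 14 libraries in 1 fit and voom on recovered fragments, and ran from 0 to 1 with each mouse left out. The difference of Mir133a-2 there ran from -0.14 (without mouse 28) to 0.61 (without mouse 31), and was -0.14 without mice 22, 24 and 28. For WT_B against WT_A, the difference of Mir133a-1 (2.90) was 5.39 with a pseudocount of 0.1 FPKM, 1.35 with 5 FPKM, 4.54 after rescaling without mitochondrial genes and 3.92 with voom, and ran from 2.56 to 3.21 with each mouse left out; that of Mir208b ran from 1.11 to 1.62. Voom moved the median of all genes in this comparison from -0.04 to -0.24 and the rescaling to 0.12. With a pseudocount of 0.1 FPKM, Mir208a had 2.61 (1.19 otherwise) and Mir1a-1 1.95 (0.35 otherwise). The difference of Mir1a-1 turned to -0.23 without mice 22, 24 and 28. Mir1a-1 was detected in 3 libraries at 2 or more fragments and 1 at 5 or more (7 otherwise), and Mir208a in 7 at 5 or more (11 otherwise). Over all genes, WT_B against WT_F gave 20 calls with no filter, 35 with all libraries in 1 fit and 1361 with voom; WT_B against WT_A, with 41 calls, gave 0 with no filter, with voom and without mouse 24, 26, 4 or 5, 1 without mouse 23, 3 without mouse 8, 4 without mouse 9, 26 with a filter of 2 FPKM or without mouse 7, 89 rescaled, 401 in 1 fit, 2392 without mouse 22 and 4206 without mice 22, 24 and 28. WT_F against WT_A gave 1 to 9 under the settings that kept all mice and 0 to 4 with 1 left out, and 1 without mice 22, 24 and 28. The causes of these changes were not tested. Depth limits Mir1a-1, Mir208a and Mir133a-1, whose values rest on 14, 77 and 85 fragments.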
